A study of Mus musculus with 2 samples.

Results

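The smooth muscle contractile genes are 10 genes that encode the actin and myosin filament proteins of smooth muscle, the proteins that bind these filaments, and the coactivator that switches the set on. They were taken by name from the 30142 named genes of the array: Acta2, Tagln, Cnn1, Cnn2, Tpm1, Tpm2, Myl9, Myh11, Lmod1 and Myocd. Each was found on 1 row of the deposited table that carried its symbol and no other, and none appeared on a row with several symbols, so no choice among rows was needed. The samples were cultured stromal cells from the inguinal fat pad of mice, with 1 array from mice with a global deletion of Wisp1 (Wisp1 KO) and 1 array from WT mice. Both groups were C57BL/6J mice 6 to 10 weeks old, and both cultures were grown in DMEM with 15% fetal bovine serum. Per the labels, the deletion came from an allele in which exons 1 to 5 of Wisp1, on chromosome 15, were flanked by lox sites, crossed to a mouse labelled Cre-neo. The labels give neither the number of animals behind a culture nor its passage or sex, and a global deletion acts in every cell type of the animal, not only in the cultured cells.

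In smooth muscle, myosin heavy and light chains pull on actin filaments that are lined by tropomyosin, while calponins and transgelin bind the actin and modulate contraction. Serum response factor (SRF) drives most of these genes through a DNA element called the CArG box, with myocardin or the related proteins MRTF-A and MRTF-B as its coactivators. Stromal cells and fibroblasts also carry many of these proteins, above all when they become myofibroblasts, and in fat tissue the same genes mark the mural cells of vessels. In heterotopic ossification, bone formation outside the skeleton, which the study is about, stromal progenitors are among the cells considered as a source of cartilage.

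The upstream sequences of the genes place these elements. RefSeq promoter windows on the GRCm38.p6 build were on hand for 7 members, and not for Tagln, Myh11 and Myocd. The windows below cover the 250 bases before the annotated start, in the direction of transcription. Acta2, Myl9 and Cnn2 are shown because their windows held a CArG box with up to 1 G or C among its 6 central bases, and Lmod1 is shown as a member past 1.2-fold whose window held an MCAT element and no CArG box. Capitals mark the CArG boxes and the MCAT element, GGAATG or its reverse complement CATTCC, which TEAD factors bind.

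Acta2, chr19:34255374-34255623, minus strand: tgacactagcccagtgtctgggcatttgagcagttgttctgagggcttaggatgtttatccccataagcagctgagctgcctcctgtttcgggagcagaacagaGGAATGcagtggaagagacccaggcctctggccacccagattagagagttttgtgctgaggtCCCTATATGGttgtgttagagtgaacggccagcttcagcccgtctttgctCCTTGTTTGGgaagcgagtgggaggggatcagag
Myl9, chr2:156775214-156775463, plus strand: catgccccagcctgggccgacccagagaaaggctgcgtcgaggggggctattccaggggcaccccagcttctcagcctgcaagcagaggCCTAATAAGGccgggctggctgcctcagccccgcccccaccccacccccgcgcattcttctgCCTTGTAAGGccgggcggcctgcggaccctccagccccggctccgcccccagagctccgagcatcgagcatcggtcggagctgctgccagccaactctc
Cnn2, chr10:79988350-79988599, plus strand: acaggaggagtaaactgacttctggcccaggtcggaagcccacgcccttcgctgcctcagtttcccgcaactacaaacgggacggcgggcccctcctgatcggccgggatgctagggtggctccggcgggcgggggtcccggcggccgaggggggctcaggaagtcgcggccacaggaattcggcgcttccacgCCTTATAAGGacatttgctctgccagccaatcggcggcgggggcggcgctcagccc
Lmod1, chr1:135324563-135324812, plus strand: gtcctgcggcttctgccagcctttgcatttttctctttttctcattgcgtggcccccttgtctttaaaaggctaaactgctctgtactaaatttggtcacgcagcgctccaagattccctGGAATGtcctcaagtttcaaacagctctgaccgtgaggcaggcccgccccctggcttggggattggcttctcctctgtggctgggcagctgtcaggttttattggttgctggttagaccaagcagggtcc

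Acta2 held the box CCCTATATGG at 84 to 75 bases before the start and CCTTGTTTGG at 34 to 25 bases, each with 1 central base that is not A or T, and GGAATG at 146 to 141 bases. Myl9 held the exact box CCTAATAAGG at 161 to 152 bases and CCTTGTAAGG, with 1 such base, at 99 to 90 bases. Cnn2 held the exact box CCTTATAAGG at 56 to 47 bases. An exact CArG box stood in 1.47% of all 32851 windows of this length, a box with up to 1 such base in 8.59%, and the MCAT letters on either strand in 12.6%. No motif searched overlapped another in these windows. The windows of Cnn1, Tpm1 and Tpm2 held no CArG box by this rule, and that of Tpm1 held GGAATG at 56 to 51 bases. Such a match describes letters only, and says nothing of whether a factor binds there.

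Expression is given as the deposited log2 values, and every difference is the Wisp1 KO value minus the WT value on that scale. With 1 array per genotype there was no replicate spread, so no test was run, and each difference compares these 2 arrays. Genotype, culture and array cannot be told apart. Wisp1 (now Ccn4) was at 5.40 in the Wisp1 KO array and at 7.79 in the WT array, a difference of -2.39. All values of the arrays ran from 1.74 to 13.65 in the Wisp1 KO array and from 1.88 to 13.62 in the WT array. Levels were judged against the median of the named genes, 4.65, and the 90th percentile, 8.09. Of the members, 9 had a mean level at or above the median and 7 at or above the 90th percentile, and Myocd was under the median.

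The contractile genes were lower in the Wisp1 KO array by small amounts. Of the 10 members 9 were lower, none was higher, and Myocd had the same value on both arrays. Of all named genes 47.4% were lower, 39.9% of those at or above the median level and 40.1% of those at or above the 90th percentile. The median difference of the members was -0.14, beside a median of 0 over all named genes, 0.03 over those at or above their median level and 0.04 over those at or above the 90th percentile. In this mixed RNA, fewer cells that carry a transcript and less of it per cell cannot be told apart.

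A difference of at least 1.2-fold, which is 0.26 on the log2 scale, was used to count larger differences. Of the 10 members 3 were lower by at least this much (Myh11, Tpm2 and Lmod1), against 5.35% of all named genes, 4.27% of those at or above the median level and 5.34% of those at or above the 90th percentile. None of the members was higher by this much, against 4.7% of all named genes and 6.4% of those at or above the median level. None was lower by 1.5-fold or by 2-fold, against 0.464% and 0.0995% of the genes at or above this median. The difference of Lmod1 (-0.28) lay just past the 1.2-fold line and that of Cnn1 (-0.24) just short of it, and 5 members were lower by at least 1.1-fold, against 12.5% of genes at or above that median.

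**Figure D1:**
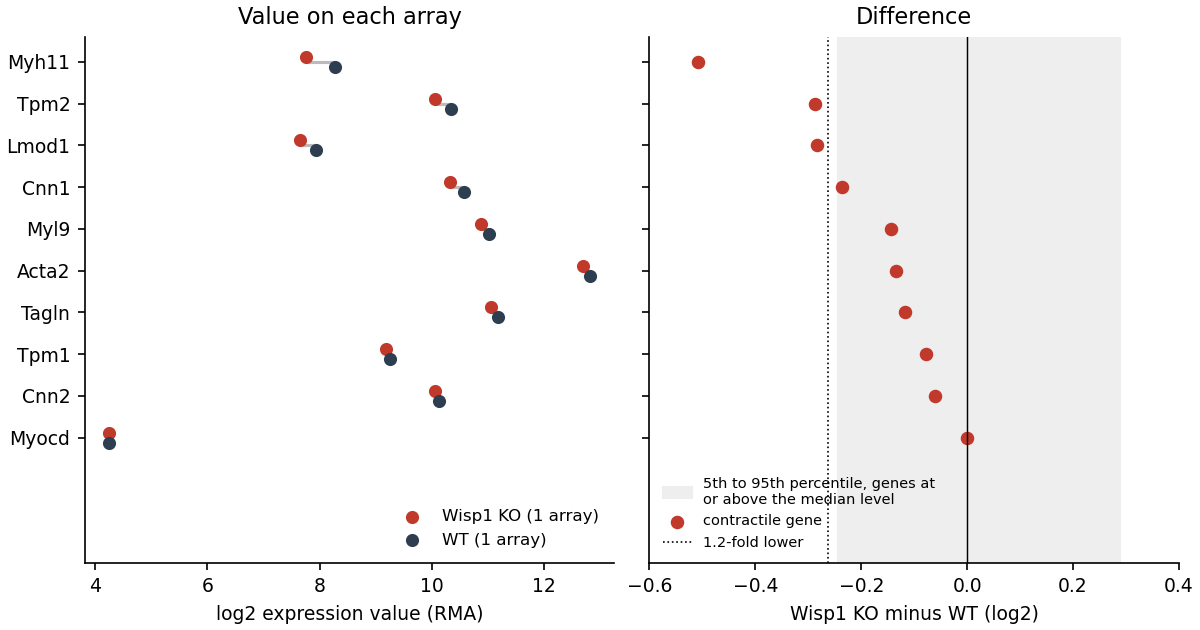
Values of the 10 contractile genes on each array (left, log2 RMA value, Wisp1 KO in red and WT in dark blue, 1 array each) and their differences (right, Wisp1 KO minus WT, log2). The grey band spans the 5th to 95th percentile of differences among genes at or above the median level, from -0.24 to 0.29; Myh11, Tpm2 and Lmod1 lie left of it and past the dotted 1.2-fold line, and Myocd lies at 0.

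The motor proteins held the member with the largest difference. Myh11, the myosin heavy chain of smooth muscle and a late marker of the mature contractile state, was at 7.76 in the Wisp1 KO array, against 8.27 in the WT array. Its difference of -0.51 left 70.3% of the WT signal on the linear scale. Among the 15072 genes whose level was at or above the median, 116 had a difference as low as that or lower, itself included. Myl9, the regulatory light chain whose phosphorylation starts contraction, was at 10.89 in the Wisp1 KO array and 11.03 in the WT array, a difference of -0.14 (90.5% of the WT signal). The heavy chain thus differed by more than the light chain on the log2 scale, and both were lower.

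Of the thin filament genes, Acta2 encodes smooth muscle alpha-actin, the usual marker of myofibroblasts. It was at 12.70 in the Wisp1 KO array and at 12.83 in the WT array, a difference of -0.13 (91.1% of the WT signal). The tropomyosins line the actin filament and gate its contact with myosin. Tpm2, the beta-tropomyosin gene, was at 10.06 in the Wisp1 KO array and 10.35 in the WT array, a difference of -0.29 (81.9%). Tpm1, the alpha-tropomyosin gene, was at 9.18 in the Wisp1 KO array and 9.26 in the WT array, a difference of -0.08 (94.7%). Only the first of these tropomyosins was past the 1.2-fold line. Lmod1, leiomodin of smooth muscle, starts new actin filaments. It was at 7.65 in the Wisp1 KO array and 7.94 in the WT array, a difference of -0.28 (82.1%).

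The actin-binding regulators also differed by unequal amounts. Cnn1, the calponin of differentiated smooth muscle, was at 10.33 in the Wisp1 KO array and 10.57 in the WT array, a difference of -0.24 (84.8% of the WT signal). Cnn2, a calponin found in many non-muscle cells, was at 10.07 in the Wisp1 KO array and 10.13 in the WT array, a difference of -0.06 (95.9%), the smallest among the 9 lower members. Tagln, transgelin or SM22-alpha, an early marker of smooth muscle, was at 11.07 in the Wisp1 KO array and 11.18 in the WT array, a difference of -0.12 (92.2%). Among genes at or above the median level, 5.33% had a difference as low as that of Cnn1, 14.9% as low as that of Tagln and 25.6% as low as that of Cnn2.

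Myocd, the gene of myocardin, was at 4.24 on each array. An identical value on both arrays occurred on 2938 rows of the table (4.45%). The low level of Myocd limits what its equal values show. Other genes under the median level did differ, such as Retn (-1.08) and Emcn (0.80). The Myocd relatives Mrtfa and Mrtfb had levels above the median. Mrtfa was at 7.57 in the Wisp1 KO array and 7.61 in the WT array (-0.04), and Mrtfb at 7.35 in the Wisp1 KO array and 7.20 in the WT array (0.15). Srf itself was at 7.95 in the Wisp1 KO array and 8.07 in the WT array, a difference of -0.12.

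The loci of the members are spread over 8 chromosomes in the RefSeq table. Tagln, Cnn1 and Tpm1 lie on chromosome 9, and no member lies on chromosome 15 with Wisp1. Tagln overlaps Pcsk7 in that table, and Tpm2 overlaps Car9. Pcsk7 was at 6.28 in the Wisp1 KO array and 6.33 in the WT array (-0.05), and Car9 at 4.09 in the Wisp1 KO array and 4.02 in the WT array (0.07). How far an overlapping neighbour adds to a member's signal was not tested.

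**Figure D2:**
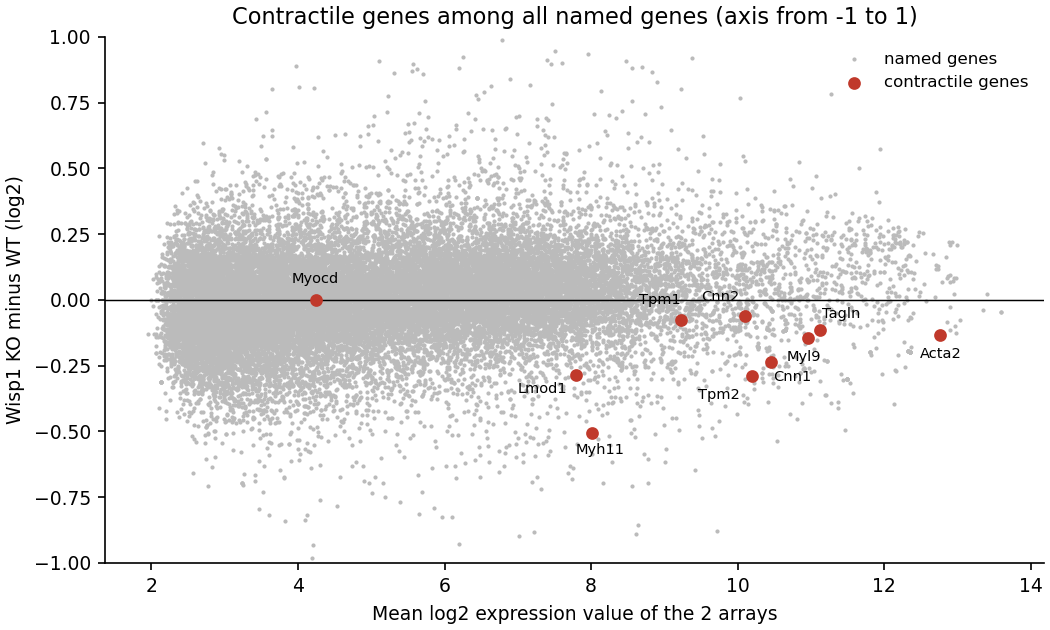
Difference between the arrays (Wisp1 KO minus WT, log2) against the mean log2 value of the 2 arrays, for all named genes (grey) and the 10 contractile genes (red); genes with a difference beyond -1 or 1 fall outside the axis. Apart from Myocd at 4.24, the contractile genes sit below 0 at levels from 7.79 for Lmod1 to 12.76 for Acta2.

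Most of the proteins have close relatives that serve the cytoskeleton of every cell or other muscle types. The relatives counted here also include Actg2, which is itself a smooth muscle actin gene. Of 19 pairs of a member and a relative with a level at or above the median, the member had the lower difference in 16. The exceptions were Tpm1 beside Tpm4, Lmod1 beside Tmod2, and Myocd, itself under the median, beside Mrtfa. Pairs that share a gene are not separate, and with 9 members lower the count largely restates the member differences. The 16 relatives had a median difference of -0.02, with 8 lower, 7 higher and 1 past 1.2-fold, Tmod2. Of all named genes 47.4% were lower, and 5.35% by at least 1.2-fold. At or above the median level 39.9% were lower, 56.9% were higher and 4.27% were lower by 1.2-fold. In the actin family the differences were close together. Beside Acta2 at -0.13 stood the smooth muscle gamma-actin gene Actg2 at -0.10 (10.82 in the Wisp1 KO array, 10.92 in the WT array), the skeletal actin gene Acta1 at -0.08 and the cytoplasmic actin gene Actb at -0.07 (12.09 in the Wisp1 KO array, 12.16 in the WT array). Actg1, the other cytoplasmic actin, was read only on rows shared with further symbols, the brighter of which differed by -0.11. Actin genes are nearly identical in coding sequence, so how far these rows share signal was not tested.

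In the other families the relatives ranged from a higher value to a lower one. Cnn3, the third calponin gene, was at 10.77 on each array. Tagln2, the transgelin of non-muscle cells, was higher, at 9.59 in the Wisp1 KO array and 9.34 in the WT array (0.25), and Tagln3 differed by 0.06. Among non-muscle myosin heavy chains, Myh10 differed by -0.10 (7.81 in the Wisp1 KO array, 7.91 in the WT array), Myh14 by 0 and Myh9, on a row with a further symbol, by 0.00. Of the light chains related to Myl9, Myl12a differed by -0.11 and Myl12b by 0.01. Tpm3 differed by 0.04 and Tpm4 by -0.08, so that Tpm1 and Tpm4 were alike to 2 decimals while Tpm2 was lower. The tropomodulins, which cap the actin filament ends, relate to Lmod1: Tmod3 differed by 0.00, and Tmod2 was lower, at 5.28 in the Wisp1 KO array and 5.63 in the WT array (-0.36). The small positive differences of Tpm3, Cnn3, Myl12b and Tmod3 became negative under quantile normalization and under loess centring, where the lowest of them was -0.04. Myh14 moved from 0 to -0.037 under quantile normalization and to -0.028 under loess. Under these settings most of the relatives were lower, so their near-even split into lower and higher was not kept.

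**Figure D3:**
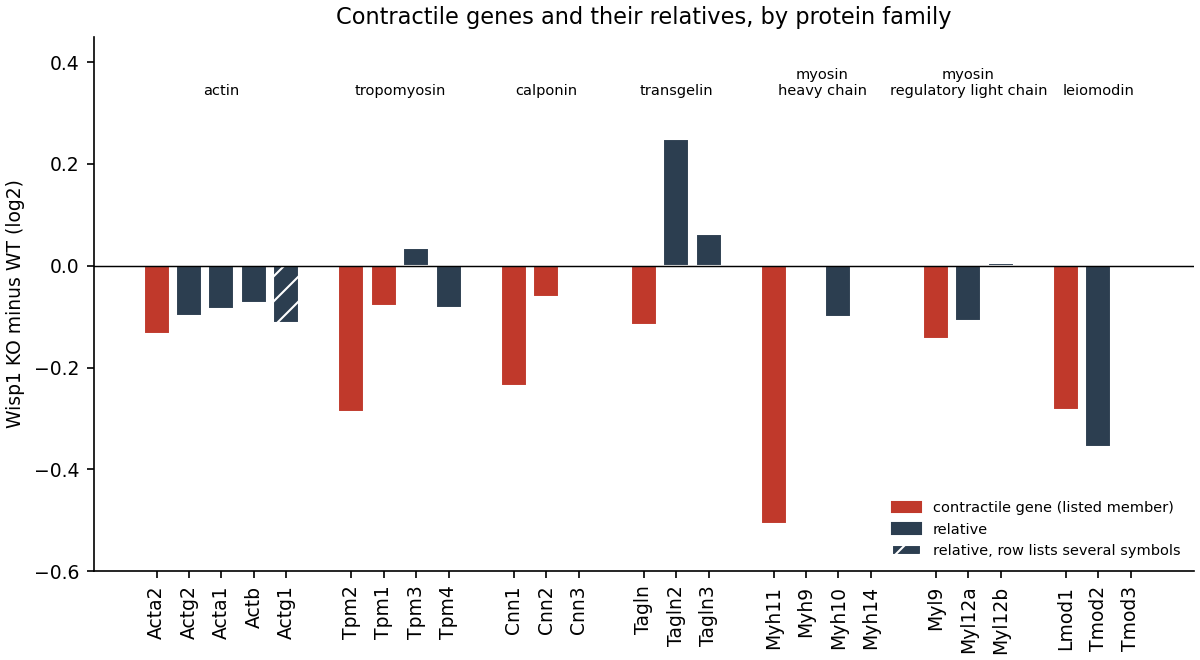
Differences (Wisp1 KO minus WT, log2, 1 array per genotype) of contractile genes (red) and of their relatives at or above the median level (dark blue; hatched where the row lists several symbols), grouped by protein family. Myh11 at -0.51 stands beside Myh10 at -0.10 and Myh9 and Myh14 near 0, Tagln at -0.12 stands opposite Tagln2 at 0.25, and the actins lie close together.

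Other parts of the contractile apparatus were not lower throughout. Of 22 measured partner genes, from adhesion and Z-line proteins to calcium handling, 14 had lower and 8 had higher values, and the median was -0.10. Of these, 4 (lower) and 3 (higher) were past 1.2-fold, where all named genes had 5.35% lower and 4.7% higher by that much. At any size, 47.4% of all named genes were lower and 47% higher. At or above the median level these shares were 39.9% and 56.9%. Mcam, a cell adhesion molecule of vessel walls, was at 7.82 in the Wisp1 KO array and 8.51 in the WT array (-0.69). Vcl, the adhesion protein vinculin, was at 9.95 in the Wisp1 KO array and 10.25 in the WT array (-0.30), and the filament-binding gene Nexn was at 7.91 in the Wisp1 KO array and 8.19 in the WT array (-0.28). The fourth was Jph2, a junctophilin, at -0.27. On the other side, the LIM protein gene Csrp2 was higher, at 9.87 in the Wisp1 KO array and 9.46 in the WT array (0.41). The intermediate filament gene Des was higher too (5.30 in the Wisp1 KO array, 4.90 in the WT array, 0.41). So was the LIM gene Pdlim3 (0.41), whose mean was just under the median level.

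Genes of contraction signalling, from kinases and phosphatase subunits to receptors and calcium channels, had a median of 0.02 over 18. Of these, 8 were lower (2 past 1.2-fold) and 10 higher (3 past 1.2-fold). Of all named genes 47% were higher, and 56.9% of those at or above the median level. By at least 1.2-fold, 5.35% of all named genes were lower and 4.7% higher, and at or above the median level 4.27% and 6.4%. Ppp1r14a, the inhibitor CPI-17 of the myosin phosphatase, was at 8.47 in the Wisp1 KO array and 9.08 in the WT array (-0.60). Prkg1, the kinase that mediates relaxation by cyclic GMP, was at 7.05 in the Wisp1 KO array and 7.36 in the WT array (-0.31). The small GTPase gene Rhob (0.27), the guanylate cyclase gene Gucy1b1 (0.30) and the endothelin receptor gene Ednrb (0.30, under the median level) were higher. The 23 regulators of SRF and myocardin had a median of -0.03, and 14 of them were lower. Lower at all were 47.4% of all named genes and 39.9% of those at or above the median level. Only Notch3, a receptor of mural cells, was past 1.2-fold among the 23 regulators, at 6.28 in the Wisp1 KO array and 6.59 in the WT array (-0.31). Gata6 had their largest positive difference (0.22).

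Striated muscle genes were also counted, 21 of the 31 measured being at or above the median level. Of the 31, 8 had lower and 22 had higher values, the median was 0.08, and 6 were higher by at least 1.2-fold and none lower. For all named genes the shares were 47% higher at all and 4.7% higher by 1.2-fold, and at or above the median level 56.9% and 6.4%. Myl1, a light chain of fast skeletal muscle, was at 5.83 in the Wisp1 KO array and 5.16 in the WT array (0.67), and the troponin gene Tnnt3 was at 6.28 in the Wisp1 KO array and 5.82 in the WT array (0.46). Tnnc2 (0.39), Mylpf (0.33), Myh3 (0.32) and Mb (0.30) completed the 6. The 8 lower genes included Acta1 (-0.08), Ckm (-0.10), Myog (-0.12) and Myod1 (-0.08), all at or above the median level.

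Markers of the cells that could be in the culture were also measured, and their part in the differences of the contractile genes was not tested. For comparison, 5.35% of all named genes were lower and 4.7% higher by at least 1.2-fold. At or above the median level these shares were 4.27% and 6.4%. Mural cell markers had 9 of 14 genes at or above the median level, while Rgs5, Kcnj8, Abcc9, Higd1b and Vtn were under it. Their median was 0.02, with 3 genes lower by 1.2-fold, Mcam, Cspg4 (-0.37; 5.65 in the Wisp1 KO array, 6.01 in the WT array) and Notch3, and 2 higher, Ndufa4l2 (1.45) and Anpep (0.88). Their summed linear signal was 3830 in the Wisp1 KO array and 2849 in the WT array. Without Ndufa4l2 and Anpep, left out after their values were seen, it was 2052 in the Wisp1 KO array and 2108 in the WT array, so these genes set the direction. Adipose stromal markers had 9 of 11 genes at or above the median level, with Dpp4 and Nt5e under it, 4 higher by 1.2-fold (Col1a1, Col1a2, Dcn and Lum) and 1 lower (Cd44, -0.30), and summed signals of 8906 in the Wisp1 KO array and 7097 in the WT array. Without Col1a1 and Col1a2 the stromal sums were 2890.2 in the Wisp1 KO array and 2872 in the WT array. Of the 13 stromal markers listed, Pdgfra and Ly6a had no row with their symbol alone and are not among the 11. Macrophage markers had 6 of 12 genes at or above the median level, with Csf1r, Adgre1, Mrc1, Ptprc, C1qa and Ctss under it, 6 higher by 1.2-fold led by Lyz2 (1.29), and summed signals of 534 in the Wisp1 KO array and 342 in the WT array. Without Lyz2 and Fcer1g these were 297 in the Wisp1 KO array and 236 in the WT array. Endothelial markers had 2 of 10 genes at that level (Tek and Cldn5), 2 higher by 1.2-fold (Cdh5, 0.80, and Emcn, 0.80, both under the median level), none lower, and summed signals of 219 in the Wisp1 KO array and 203 in the WT array. Without Cdh5 and Emcn these were 178 in the Wisp1 KO array and 179 in the WT array. Mature adipocyte markers had 4 of 8 genes at that level, with Adipoq, Retn, Cidec and Lep under it, 2 lower by 1.2-fold (Retn, -1.08, and Adipoq, -0.64), none higher, and summed signals of 297 in the Wisp1 KO array and 310.5 in the WT array, or 175 in the Wisp1 KO array and 187 in the WT array without Retn and Pparg.

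The genes of activated fibroblasts, which Acta2 is often counted among, were set beside the contractile genes. Of 15 measured, 14 of them at or above the median level, 11 had higher and 4 had lower values, the median was 0.17, and 6 were higher by at least 1.2-fold and 1 lower. At or above the median level, 56.9% of named genes were higher and 6.4% were higher by 1.2-fold. The contrast with the contractile genes was not tested. Lrrc15, a membrane protein of myofibroblasts, was at 7.28 in the Wisp1 KO array and 6.29 in the WT array (0.99). The collagen-binding integrin gene Itga11 was at 9.26 in the Wisp1 KO array and 8.40 in the WT array (0.87), and the matrix protein gene Postn was at 12.23 in the Wisp1 KO array and 11.65 in the WT array (0.57). Tgfbr2, the TGF-beta receptor, was higher as well (0.51), and Fap (0.48) was under the median level. Itga8, an integrin of contractile cells, was the 1 gene lower by 1.2-fold, at 6.95 in the Wisp1 KO array and 7.67 in the WT array (-0.72). The others of the 4 lower genes were Pdpn (-0.26), just short of that line, Cthrc1 (-0.23) and Ccn2 (-0.13), all at or above the median level.

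**Figure D4:**
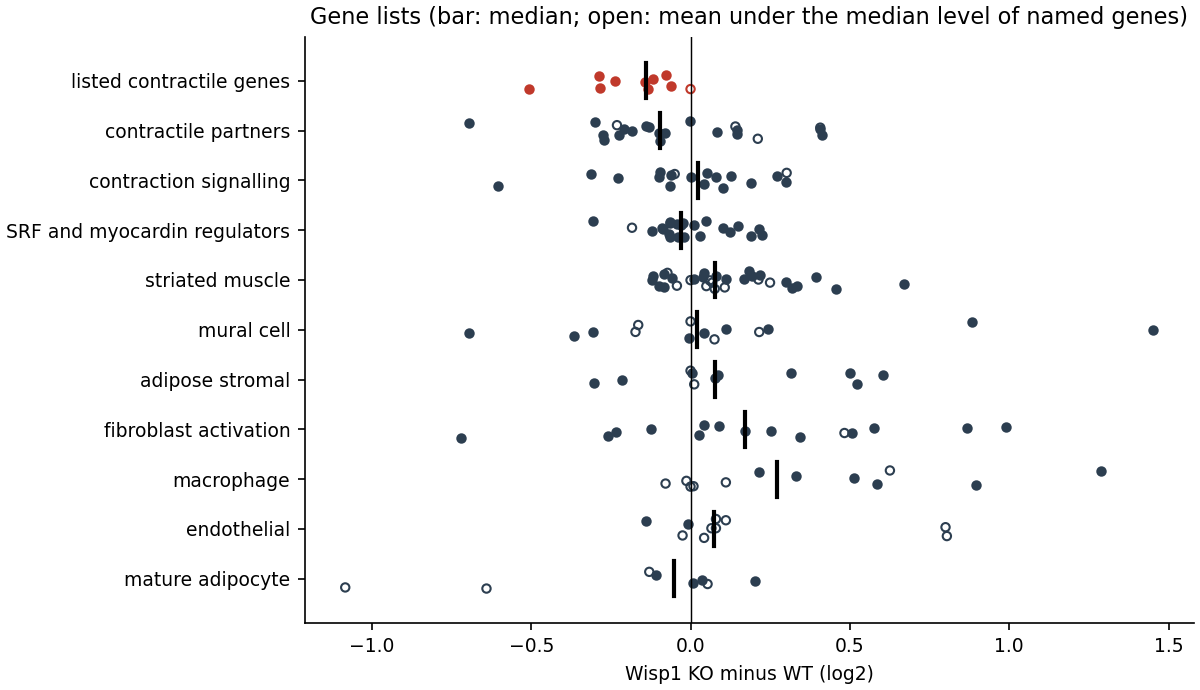
Differences (Wisp1 KO minus WT, log2, 1 array per genotype) of each gene in the contractile set (red) and in 10 other lists (dark blue), with a bar at the median of each; open circles have a mean under the median level of named genes, and the height within a row is random. The contractile genes lie between -0.51 and 0. Of the other lists shown, contractile partners have the lowest median, -0.10, and fibroblast activation and macrophage genes have the highest, 0.17 and 0.27.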

How the data were processed

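RNA of 1 Wisp1 KO and 1 WT culture was labelled with biotin for Affymetrix arrays, per the labels' protocols. The authors deposited log2 values per transcript cluster, made with RMA and Partek, per the submitters' processing notes; versions, array build and the arrays normalized together are not given in the sources used here. That the scale is log2 was inferred from the range of the values. RMA makes arrays alike in distribution, which hides a shift common to most genes and shrinks differences at low levels.

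Of 65956 rows 30604 had 1 platform gene symbol, 2146 several and 33206 none. Symbols were updated by Entrez ID with RefSeq GRCm38.p6 (827 changed), and the row with the highest mean was kept per gene. Differences are Wisp1 KO minus WT, with no further normalization, no replicate and no test; the number of arrays limits precision. Counts used 1.2-fold, with 1.1-fold, 1.5-fold and 2-fold as alternatives, beside median centring, quantile normalization, loess (span 0.3), the mean over rows, rows with several symbols kept, filters on level, and the mean of a list. Summed linear signal is the sum of 2 to the power of each log2 value. Counting was tested on simulated data.

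The members and the lists were chosen with earlier results of these data known. The naming rule took all members, Wisp1 and cytoplasmic relatives. From each list it took up to 6 genes past 1.2-fold and at least the 2 largest differences at or above the median level. Actg2, Acta1, Actg1, Srf, Mrtfa, Mrtfb, Jph2, Pcsk7, Car9, Ckm, Myog, Myod1, Pdpn, Cthrc1 and Ccn2 were named after their values were seen. So were the marker genes named only as under the median level, and those in the closing section. Tools were matplotlib 3.10.9, statsmodels 0.14.6, pandas 2.3.3, numpy 2.4.6 and Python 3.11.15.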

Additional observations from a re-analysis of the deposited data

How the results depend on the processing

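The 10 member differences stayed within 0.042 of their reported values and none changed sign under the 5 alternatives of normalization and row choice. The alternatives of row choice could not move them, because each member had 1 row. Median centring moved every difference by the same 0.015, so only quantile normalization and loess could change members unequally. Myh11 ranged from -0.55 to -0.49, Tpm2 from -0.31 to -0.27, Lmod1 from -0.32 to -0.27 and Acta2 from -0.14 to -0.12; Myocd ranged from 0 to 0.02, and Wisp1 from -2.43 to -2.38. The median of the members ranged from -0.19, as a mean, to -0.12, and 9 members were lower in every alternative. The row choices and the filters on level could not change this count, since the filters left out only Myocd. The count of members lower by 1.2-fold was 3, and became 5 at 1.1-fold, 0 at 1.5-fold and 0 at 2-fold. The 16 pairs in which a member was lower than its relative were 16, 15 and 17 under median centring, quantile normalization and loess, alternatives chosen after seeing the data. Of the other lists, the endothelial median of 0.07 was -0.074 with either filter on level and 0.18 as a mean. The macrophage median of 0.27 was 0.55 with the filter on the mean, 0.58 with the filter on the brighter array and 0.37 as a mean. The mature adipocyte median of -0.05 was -0.21 as a mean. Lists close to 0 changed sign within this range: contraction signalling (-0.0026 as a mean) and cytoplasmic paralogs (lowest -0.04), and so did the mature adipocyte list (highest 0.02, with a filter on level). As differences of summed linear signal, Wisp1 KO minus WT, the mural list gave -56.7 in place of 981 and the endothelial list -1.09 in place of 16.4 without the 2 genes that differed most, settings chosen after seeing the data. The number of arrays limits precision, as does the low level of Myocd. No paired analysis was possible because each genotype has 1 array.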

Other observations

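Genes with an exact CArG box in a 250-base upstream window were set beside the others, as a description with no test. Of 143 such genes with a level at or above the median, 73 were lower in the Wisp1 KO array (51.0%), against 38.5% of 9377 genes with a window and no such box. Their median difference was -0.0045, against 0.03 in the genes without it. At least 1.2-fold lower were 7 of them (4.90%), against 3.37%, and at least 1.2-fold higher another 7 (4.90%), against 5.42%. Without the members Myl9 and Cnn2, 71 of 141 were lower (50.4%), with a median of -0.0027. The lowest of the 143 were Lmcd1, a LIM and cysteine-rich domain protein (6.56 in the Wisp1 KO array, 7.12 in the WT array, -0.56), and Gsto1, a glutathione transferase of the omega class (8.33 in the Wisp1 KO array, 8.86 in the WT array, -0.52). The highest were Lgr4, a receptor for R-spondins (7.58 in the Wisp1 KO array, 6.93 in the WT array, 0.66), and Pdgfc, a platelet-derived growth factor ligand (7.16 in the Wisp1 KO array, 6.76 in the WT array, 0.39). Vcl was among the lower ones at -0.30.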
